A study of Sus scrofa with 20 samples.

Results

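Chromaffin cells of the adrenal medulla pack their hormones into dense-core granules, and the granins are the acidic proteins that fill these granules together with the catecholamines. The transcripts described here are those of the granin family and of the enzymes that cut prohormones into peptides: CHGA (chromogranin A), CHGB (chromogranin B), SCG2 (secretogranin II), SCG3 (secretogranin III), SCG5 (the chaperone 7B2), the prohormone convertases PCSK1 and PCSK2, and CPE (carboxypeptidase E). Members were chosen by gene symbol. Of the 8 genes listed, 7 had a named probe set on the array, out of 13588 genes measured in all, and PCSK1 was not named in the annotation and is not analysed here. A gene measured by several probe sets is represented by the brightest of them on average.

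Granins condense in the trans-Golgi network and take part in the formation of secretory granules. They are also precursors, since convertases cleave them at pairs of basic residues and carboxypeptidase E then removes the basic residues left at the end of each peptide. The fragments include pancreastatin from CHGA and secretoneurin from SCG2. SCG3 binds CHGA and cholesterol at the granule membrane, and 7B2 keeps the precursor of PCSK2 from activation until it has reached the granule.

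The arrays held RNA from the adrenal glands of 20 pigs of the German Landrace breed, with 1 animal per array. The labels call the animals adult, and by the study's methods they were slaughtered within their first year of life. Of these animals, 10 were of the high-reactive (HR) and 10 of the low-reactive (LR) coping type. The groups were the extremes of a backtest done early in life, in which the struggling of a piglet laid on its back is recorded, and they also carried different haplotypes at a quantitative trait locus for coping behavior. No animal was treated, so that HR and LR differ in a measured trait and in the selected haplotypes, not in an intervention. Values are log2 units after robust multichip averaging (RMA), and a difference of 1 unit is a doubling of the signal. The sources used here do not say which part of a gland was extracted. Fewer cells of a type, less RNA per cell and a different part sampled therefore cannot be told apart.

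The 20 arrays had medians between 4.74 and 4.81, and the array of animal HR2835 stood apart with a mean correlation of 0.938 to the others, against 0.977 to 0.983 for the remaining 19. All 10 measured chromaffin markers and all 9 measured cortex markers had mean levels above these medians, from 6.40 for PHOX2A to 10.85 for CYB561 and from 9.80 for FDXR to 13.56 for CYP17A1. HR2835 had the lowest mean standardized cortex marker level of all animals (-2.42, against -0.53 to 0.87 in the others). Its capsule and fibroblast (-2.12), Schwann and sustentacular (-2.36), endothelium (-1.14) and adipocyte levels (-0.98, with HR2797 alike) were also the lowest. Its neuron level was the highest (0.80), with 0.76 in HR2894. The neuron list holds ELAVL4, whose mean of 2.22 lay below the array medians. The leukocyte level of HR2835 was -0.77, with -1.46 in LR2793. Its chromaffin level was -1.21, with -1.67 in the lowest LR animal. The array quality weight that limma gave to HR2835 was 0.14, against 0.83 to 1.48 in the others. Values without this animal are given beside the main results that it moves.

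The genes lie on several chromosomes of the pig (Sscrofa11.1, RefSeq positions matched by symbol). CHGA is located at chr7:114345542-114357799 and SCG2 at chr15:125420773-125426303. CHGB at chr17:14747282-14761995 and PCSK2 at chr17:25681424-25920690 share a chromosome, as do SCG3 at chr1:120045302-120090035 and SCG5 at chr1:136525920-136590021. CPE is located at chr8:43568744-43695475.

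CHGA and CHGB, the chromogranins proper, lay far above the array medians in every animal. CHGA lay between 10.89 and 11.66 in HR (median 11.21) and between 10.70 and 11.73 in LR (median 11.18). The HR values were thus enclosed by those of LR, with LR2594 lowest and LR2639 highest. CHGB lay between 11.47 and 12.65 in HR (median 12.11) and between 11.42 and 12.68 in LR (median 12.21). Here too LR held both ends, LR2790 the lowest and LR2793 the highest. Between the lowest and the highest animal the signal differed 2.05-fold for CHGA and 2.40-fold for CHGB.

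SCG2, the precursor of secretoneurin, had the widest spread of the 7 transcripts. It ranged from 8.83 to 10.86 in HR (median 9.27) and from 8.04 to 10.72 in LR (median 9.76), a 7.09-fold difference between the lowest and the highest animal. The highest value belonged to HR2835 and the lowest to LR2790, and the groups overlapped over nearly the whole range. SCG3 lay between 6.76 and 8.54 in HR (median 7.42) and between 6.44 and 8.20 in LR (median 7.65), a 4.28-fold range. LR2790 was lowest again, and 1 HR animal, HR2797, exceeded every LR animal.

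SCG5 ranged from 5.93 to 7.65 in HR (median 6.68) and from 5.98 to 7.26 in LR (median 6.67), a 3.29-fold range with HR animals at both ends. PCSK2, the convertase that 7B2 assists, had the narrowest range (1.79-fold) and lay nearest to the medians of the arrays. Its values were 5.07 to 5.89 in HR (median 5.55) and 5.05 to 5.77 in LR (median 5.47). No detection call was used for it here.

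CPE, which trims the peptides after cleavage, had several HR animals below all LR animals. It ranged from 7.59 to 9.03 in HR (median 8.38) and from 8.36 to 9.04 in LR (median 8.46). Of the HR animals, 4 (HR2835, HR2857, HR2897 and HR2915) lay below the lowest LR animal, whereas the upper ends of both groups were alike. HR2835 is the array that stood apart. The share of all genes with such a count was not determined here, so that the count is a description only. The SD was 0.48 in HR and 0.23 in LR, and the difference in spread was not tested.

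**Figure D1:**
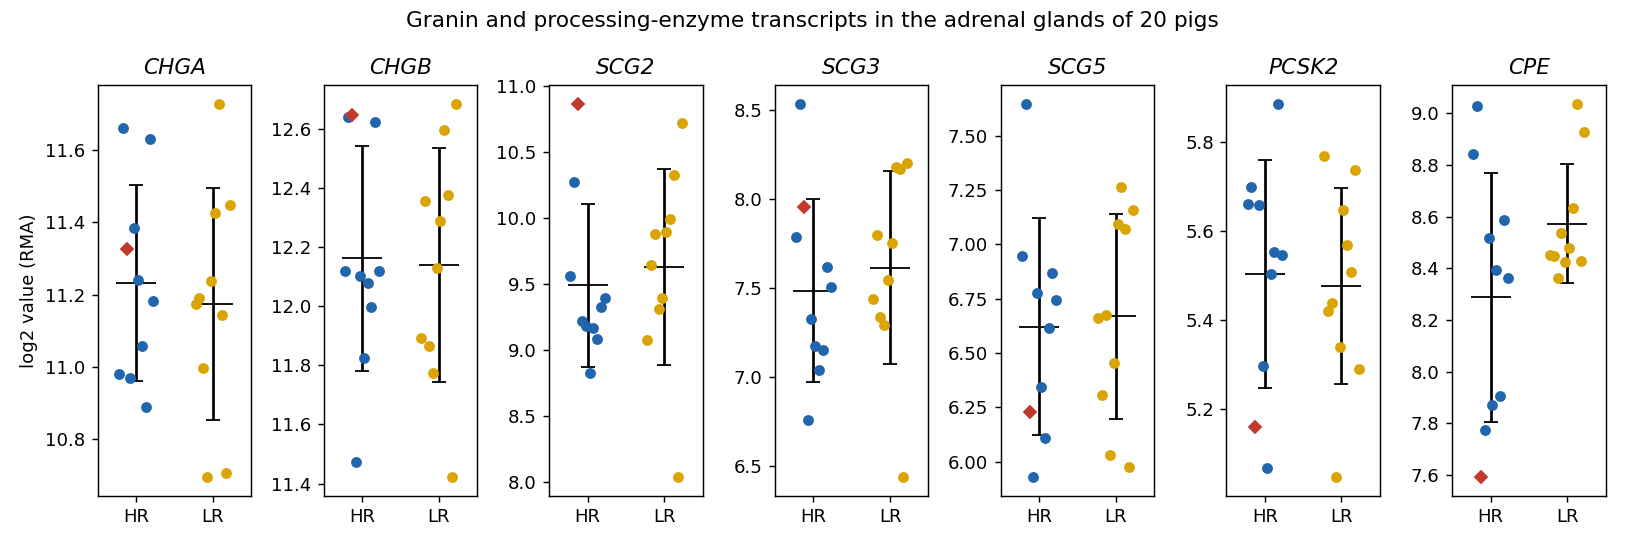
Log2 values (RMA, vertical axes with a scale of their own per gene) of the 7 transcripts in HR (blue) and LR (yellow); points are animals, the red diamond is HR2835, horizontal lines are group means and bars are SD (n = 10 per group). The groups overlap for every transcript, and 4 HR animals, HR2835 among them, lie below all LR animals for CPE.

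The comparison of HR with LR asks whether coping type goes with a different content of granule transcripts in the gland. None of the 7 transcripts passed the test between HR and LR (limma, adjusted p = 1.0 for each over 47722 probe sets), and the same fit called 0 of all probe sets (0%). At an unadjusted p under 0.05 it held 1741 probe sets (3.65%), and of 13588 genes 419 (3.08%), with none of the 7 among them. The p-values set each difference against the variation between animals, with variances moderated over all probe sets. The number of arrays limits the precision.

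The estimates lay close to 0 for the chromogranins. The mean of CHGA was 11.23 ± 0.27 in HR (SD, n = 10), against 11.17 ± 0.32 for LR (SD, n = 10), which gave a difference of 0.06 (SE 0.13) with a 95% confidence interval of -0.21 to 0.32. In linear terms, HR had 104% of the LR level (interval 86.4% to 125%). CHGB differed by 0.02 (SE 0.16, interval -0.32 to 0.36), or 102% of LR (80.4% to 129%). HR was higher than LR in 53 of 100 pairs of 1 HR and 1 LR animal for CHGA and in 50 for CHGB.

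For the secretogranins the intervals were wider. SCG2 averaged 9.49 ± 0.62 (HR) and 9.63 ± 0.74 (LR), and the difference was -0.14 (SE 0.28, interval -0.72 to 0.44). Without HR2835, its highest animal, the difference was -0.29 (limma, p = 0.26, adjusted p = 0.776). SCG3 differed by -0.13 (SE 0.22, interval -0.58 to 0.32) and SCG5 by -0.05 (SE 0.20, interval -0.47 to 0.37).

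Of the enzymes, PCSK2 differed by 0.03 (SE 0.11, interval -0.20 to 0.25). CPE averaged 8.29 ± 0.48 (HR) and 8.57 ± 0.23 (LR), with a difference of -0.29 (SE 0.16, interval -0.62 to 0.05, limma p = 0.0874, adjusted p = 1.0), and HR was higher in 32 of 100 animal pairs. It had the smallest p of the 7 transcripts, and a permutation test of the means gave p = 0.105 (two-sided, 100000 resamples). HR stood at 82.1% of LR in linear terms (65.3% to 103%). The value was -0.21 without HR2835 (limma, p = 0.176, adjusted p = 0.723) and -0.37 without HR2797 (p = 0.0218, adjusted p = 1.0), the ends of its range with 1 animal left out. It was -0.33 with the chromaffin score as covariate (p = 0.0267, adjusted p = 1.0).

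Transcripts of the capsule and of fibroblasts had lower means in HR as well, in 7 of 7 markers (-0.66 to -0.17). Of all 13588 genes, 7300 had lower means in HR. The proteoglycans LUM (-0.66, limma p = 0.012) and DCN (-0.35, p = 0.032) had an unadjusted p under 0.05, each with an adjusted p of 1.0. Without HR2835 all 7 markers were still lower in HR (-0.52 to -0.17), beside 6361 of all genes. LUM then had p = 0.0234 and DCN p = 0.0585 (limma, adjusted p = 0.612 and 0.640). The mean standardized level of the 7 markers ranged from -2.12 to 0.35 in HR (from -0.84 without HR2835) and from -0.61 to 1.44 in LR. Over the 20 animals CPE had r of 0.62 with this level (permutation test, adjusted p = 0.113), and 0.40 without HR2835. The part of these markers in the difference of CPE between HR and LR was not tested.

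CPE was measured by 5 probe sets, which allowed the same difference to be read several times in the same RNA. The 3 brightest correlated with each other over animals (r = 0.82 to 0.90), and the other 2 of these differed by -0.31 and -0.32. In the third of them 6 HR animals, HR2835 among them, lay below the lowest LR animal and 2 above the highest, again without a share over all genes. The 2 dim probe sets, with means of 2.96 and 2.53, differed by -0.21 (limma, p = 0.0524, adjusted p = 1.0) and 0.07. Both probe sets of CHGA (r = 0.98) and of CHGB (r = 0.92) followed each other, whereas the dim second probe sets of SCG3 (mean 1.83) and PCSK2 (mean 2.92) did not follow the first (r = -0.08 and -0.02).

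Over the 7 transcripts, the mean was higher for HR in 3 and for LR in 4, with a median difference of -0.05, and over all genes HR was higher in 46.3% with a median difference of -0.01. Without HR2835 the members stood at 2 and 5 with a median of -0.03, and 53.2% of all genes were then higher in HR. In that fit 3765 probe sets (7.89%) and 1093 genes (8.04%) had an unadjusted p under 0.05, with none of the 7 among them and 0 genes (0%) past the adjusted threshold.

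**Figure D2:**
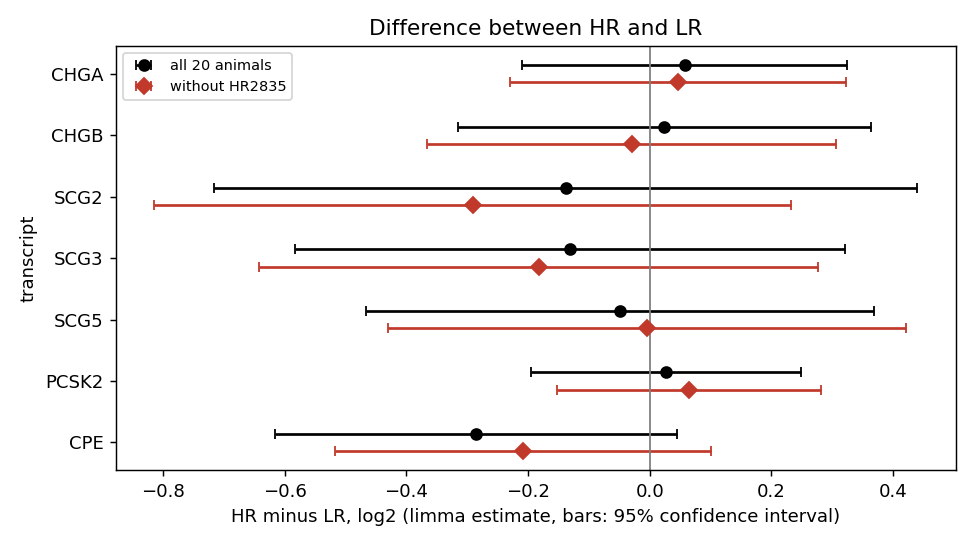
Difference HR minus LR (log2, horizontal axis) of each transcript from limma with all 20 animals (black circles) and without HR2835 (red diamonds); bars are 95% confidence intervals. Every interval includes 0, and CPE has the estimate farthest from it with all animals (-0.29).

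Other granule transcripts were compared in the same fit. A list of 50 genes of granule biogenesis, cargo and exocytosis had 37 measured genes, of which 0 passed the adjusted threshold and 0 an unadjusted p under 0.05. HR was higher on average in 19 of these and LR in 18, with a median difference of 0.01. The 4 smallest p belonged to the sorting receptor SORL1 (-0.20, limma p = 0.107), the convertase PCSK4 (0.15, p = 0.11), the vesicle protein RPH3A (0.16, p = 0.167) and the convertase PCSK7 (0.15, p = 0.326), each with an adjusted p of 1.0. Without HR2835 PCSK4 was the 1 gene of the 37 with an unadjusted p under 0.05 (difference 0.19, p = 0.0304, adjusted p = 0.623), where 8.04% of all genes had one.

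Means of the 4 brightest genes of the list were as follows. The lysosomal protease CTSB averaged 11.96 (HR) and 11.97 (LR), and CYB561, the granule cytochrome that regenerates ascorbate, 10.82 and 10.87. QPCT, which forms the pyroglutamate end of some peptides, averaged 10.86 and 10.76, and ATP6AP1, a subunit of the proton pump that acidifies granules, 9.14 and 9.20. The general convertase FURIN, which acts before the granule, differed by 0.11 (SE 0.13).

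The granin transcripts varied together from animal to animal. Of the 21 pairs of members, 12 were correlated over the 20 animals (permutation test with 100000 resamples, Benjamini-Hochberg adjustment over the 21 pairs), all positively, and 12 also by Spearman's rho. All 10 pairs among CHGA, CHGB, SCG2, SCG3 and SCG5 were past the threshold, with a median r of 0.75 and a range of 0.53 to 0.89. With each of the 20 animals left out in turn, CHGA with SCG2 and SCG2 with SCG5 each fell short 3 times. By rho without HR2835, 9 of the 10 passed. For comparison, the share of 10175 genes above the median level with r above 0.5 was 2.95% for CHGA, 5.33% for CHGB, 5.39% for SCG3 and 3.39% for SCG5, but 15.7% for SCG2 (8.50% without HR2835). In the order of these genes by r with SCG2, SCG5 stood at place 1253 and CHGA at place 1383, and without HR2835 at places 60 and 560. The correlation of PCSK2 with the other 6 had a median r of 0.08 and a range of -0.21 to 0.31, and 0 of these 6 pairs passed.

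The closest pair was CHGB with SCG3 (r = 0.89, rho = 0.90, permutation p = 1e-05, the smallest that the resamples can give, adjusted p = 7.0e-05). Leaving out the 2 animals whose CHGB was farthest from its median gave r = 0.82. Next came SCG2 with SCG3 (r = 0.85, rho = 0.88, permutation p = 1e-05, adjusted p = 7.0e-05, r = 0.83 without the 2 farthest animals). CHGA and CHGB followed each other at r = 0.81 (rho = 0.78, permutation p = 2.0e-05, adjusted p = 8.4e-05, 0.79 without the 2 farthest). SCG3 with SCG5 had r = 0.80 (rho = 0.75, adjusted p = 7.0e-05) and CHGB with SCG2 had r = 0.79 (rho = 0.81, adjusted p = 8.4e-05). The loosest pair within the granins was CHGA with SCG2 (r = 0.53, rho = 0.50, adjusted p = 0.0287).

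**Figure D3:**
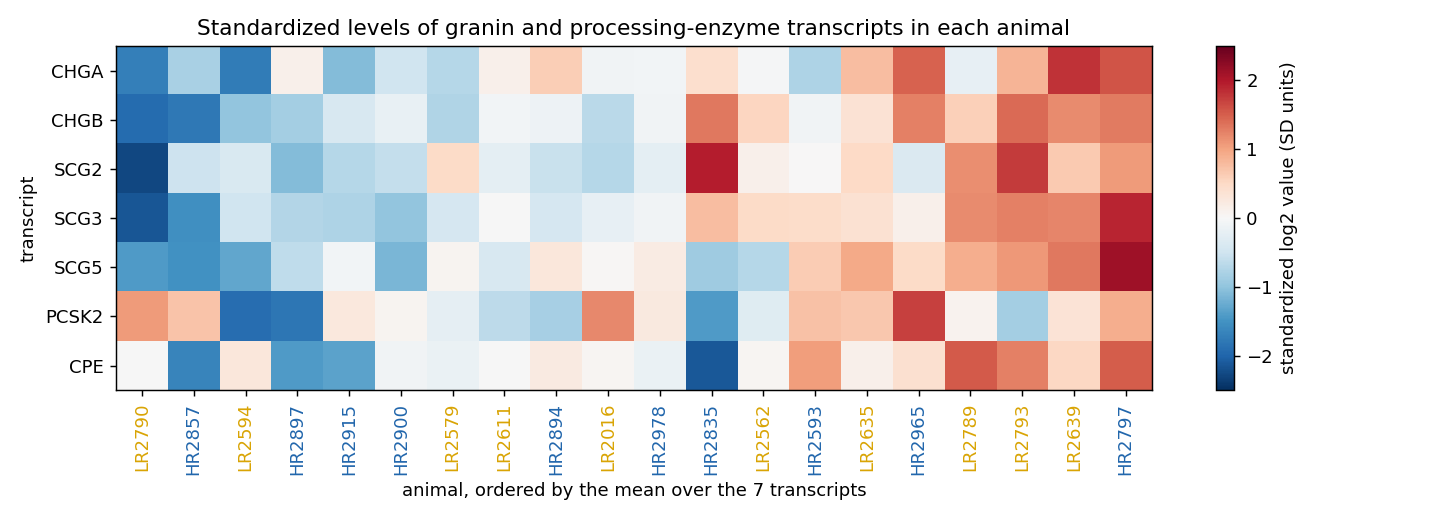
Standardized log2 values (colour, in SD units) of the 7 transcripts (rows) in each animal (columns, HR names in blue and LR names in yellow, ordered by the mean of the rows). LR2790 is low in the granin rows and HR2797 is high in them, while the PCSK2 row follows another order and HR2835 is high for SCG2 and low for CPE.

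The animals at the ends recurred. LR2790 was the lowest of the 20 animals for CHGB, SCG2 and SCG3 and the 19th for CHGA and SCG5, but the 3rd highest for PCSK2. HR2797 was the highest for SCG3 and SCG5, the 2nd for CHGA and CPE and the 3rd for CHGB. Both ends of the order thus held animals of either coping type. In LR the ranks of CHGB and SCG3 were identical in all 10 animals (rho = 1).

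Within the groups, the pairs had a median r of 0.54 in HR and of 0.65 in LR. After adjustment over the 42 relations of both groups, 5 pairs passed in HR and 9 in LR. Among the granins and SCG5, 4 of 10 pairs passed in HR and 9 in LR. The difference between HR and LR in r was not tested. For the HR animals without HR2835 the median r was 0.66, and 10 of the 21 pairs passed (exact permutation test, n = 9, adjusted over the 21 pairs), with 6 by rho.

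The correlation of CPE with the granins was higher without HR2835 for 4 of 5 pairs and alike for SCG5. With all animals, CPE correlated with SCG5 (r = 0.67, rho = 0.71, adjusted p = 0.00275) and SCG3 (r = 0.55, rho = 0.62, adjusted p = 0.024), and not past the threshold with CHGB (r = 0.40, adjusted p = 0.134), CHGA (r = 0.29, adjusted p = 0.284) and SCG2 (r = 0.25, adjusted p = 0.346). This animal had the lowest CPE and the highest SCG2 of all. Without it, r was 0.75 with SCG3, 0.67 with SCG5, 0.67 with CHGB (adjusted p = 0.00315) and 0.63 with SCG2 (adjusted p = 0.00732), and CHGA did not pass (r = 0.39, adjusted p = 0.137). The count over all pairs was then 14 (13 by rho) and the median r 0.67.

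**Figure D4:**
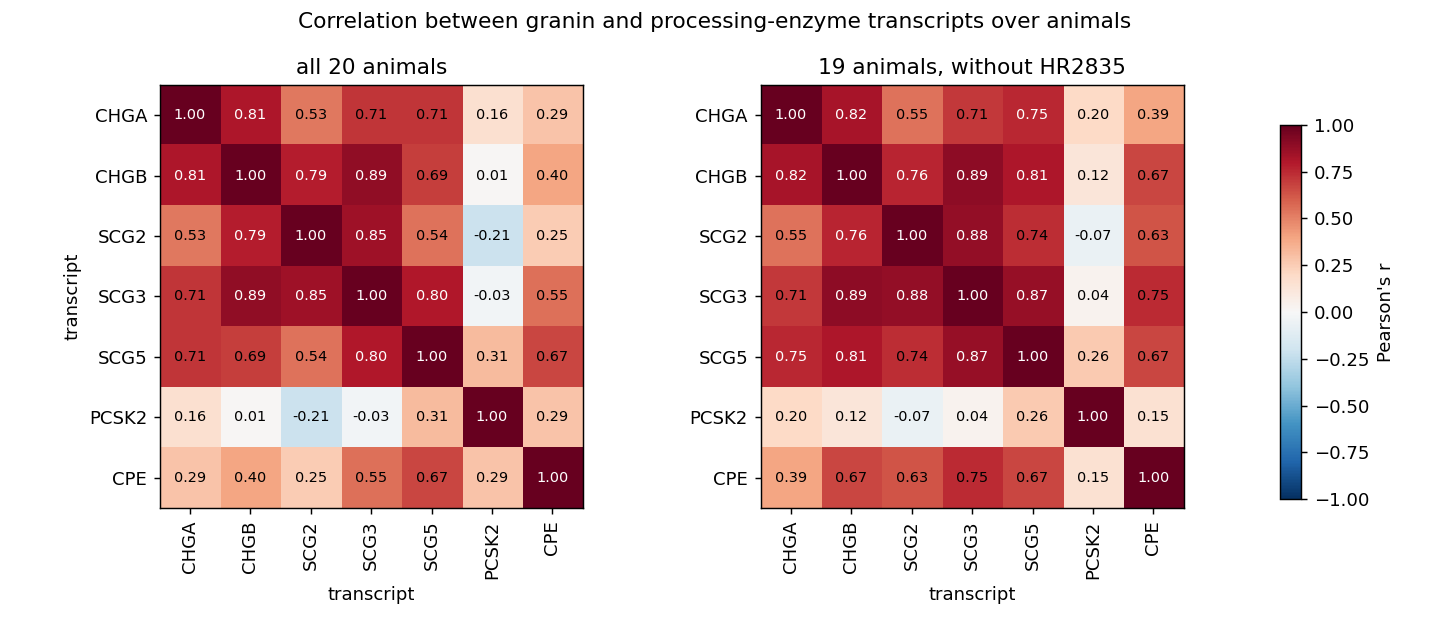
Pearson's r over animals (colour and printed value) between the 7 transcripts, with all 20 animals on the left and without HR2835 on the right. The granins and SCG5 form a block of high values in both panels, the row of CPE has higher values with the granins on the right, and the row of PCSK2 stays between -0.21 and 0.31.

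Since granins are made by chromaffin cells, their values were set against the mean standardized level of 10 chromaffin markers that hold no member: the catecholamine enzymes DBH, PNMT and DDC, the vesicular transporters SLC18A1 and SLC18A2, CYB561, and the transcription factors PHOX2A, HAND2, INSM1 and ISL1. TH was not named in the annotation. Over 14 relations with this score and a cortex score, 2 passed. CHGA followed the chromaffin score most closely (r = 0.83, rho = 0.81, adjusted p = 4.2e-04, r = 0.74 without the 2 farthest animals), followed by SCG5 (r = 0.75, rho = 0.76, adjusted p = 0.00112). CHGB (r = 0.55, rho = 0.54, adjusted p = 0.0531), SCG3 (r = 0.50, adjusted p = 0.0584), CPE (r = 0.46), PCSK2 (r = 0.37) and SCG2 (r = 0.24) did not pass.

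HR2835 lay off the relations of CHGA, CHGB, SCG2 and SCG3, with a low chromaffin level but ranks of 7, 2, 1 and 5 from the highest. For SCG5 (rank 16), PCSK2 (18) and CPE (20) it was low, as its score was. Without this animal r was 0.93 for CHGA, 0.73 for CHGB (adjusted p = 0.00205), 0.73 for SCG5, 0.59 for SCG3 (adjusted p = 0.0275) 0.47 for SCG2 (adjusted p = 0.0732), 0.33 for CPE and 0.30 for PCSK2, so that 4 relations passed. Within LR, CHGA (r = 0.93) and SCG5 (r = 0.83) passed over 28 relations of both groups. Within HR 0 did (CPE r = 0.74, SCG5 r = 0.71, CHGA r = 0.68). For CHGA, r with single markers of the score was 0.89 for SLC18A1, 0.83 for DDC, 0.81 for PNMT and 0.79 for DBH. It was lower for SLC18A2 (0.57) and for CYB561 (0.21, or 0.38 without HR2835). No single values are given here for PHOX2A, HAND2, INSM1 and ISL1.

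**Figure D5:**
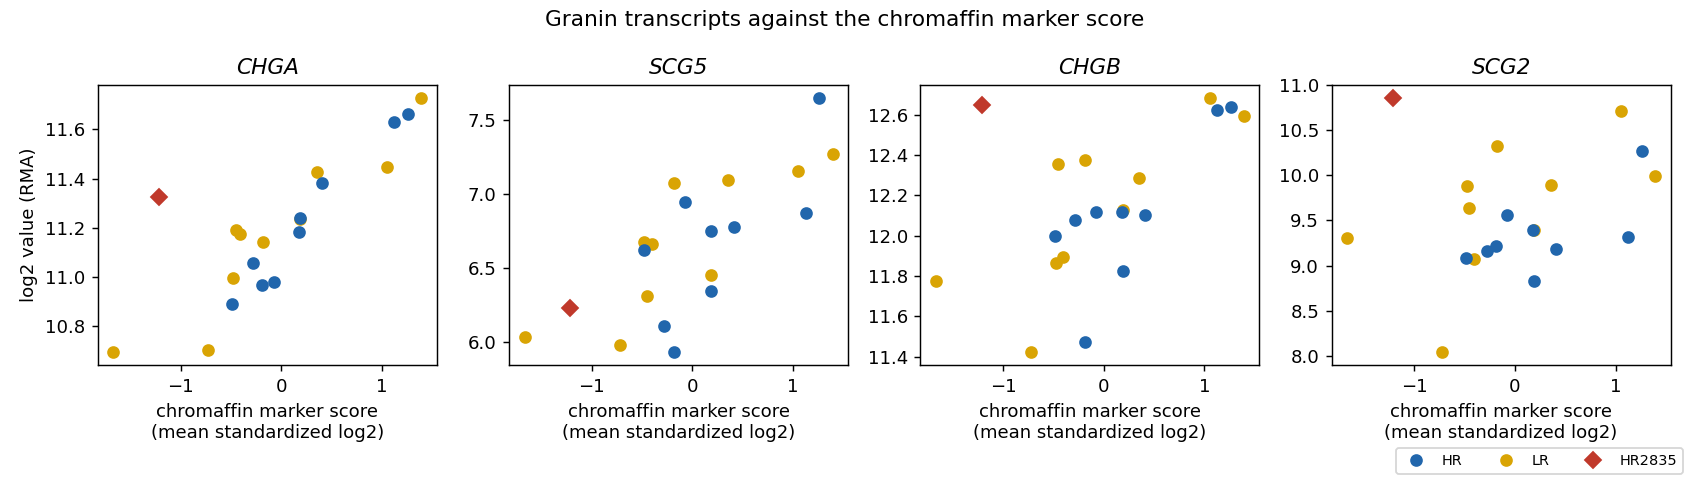
Log2 value (RMA) of CHGA, SCG5, CHGB and SCG2 (vertical axes) against the mean standardized level of 10 chromaffin markers (horizontal axis) in HR (blue), LR (yellow) and HR2835 (red diamond); points are animals. CHGA follows the score (r = 0.83) with HR2835 off the trend at a low score, and SCG2 is spread widely around it (r = 0.24).

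Granin pairs also passed with the chromaffin score held constant (partial correlation). Of the 21 pairs, 9 passed and the median r was 0.41. The values stayed at 0.85 for CHGB with SCG3 and 0.87 for SCG2 with SCG3. That of CHGA with SCG5 was 0.24, against 0.71 before. These partial values include HR2835, which lay off the relations of CHGA, CHGB, SCG2 and SCG3 with the score, and none are given here without it. Its part in them was not tested. The score is a mean of markers, so that holding it constant need not hold the chromaffin content constant. With the cortex score held constant, 14 pairs passed at a median of 0.65. The cortex markers themselves passed with 0 of the 7 transcripts, with r of -0.51 for SCG2 (-0.33 without HR2835), -0.50 for CHGB (-0.51), -0.39 for SCG3 (-0.49), -0.07 for SCG5 (-0.48), 0.13 for PCSK2 (-0.25) and 0.28 for CPE (-0.36).

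Markers of other cell types were set against the same 7 transcripts in 49 relations, of which 0 passed. The values farthest from 0 were those of CPE with 7 capsule and fibroblast markers (r = 0.62, rho = 0.53, adjusted p = 0.113, 0.40 without HR2835) and of SCG2 with 4 leukocyte markers (r = -0.61, rho = -0.58, adjusted p = 0.113). Without HR2835, CHGA passed with 3 Schwann and sustentacular markers (r = 0.66, adjusted p = 0.0453) and CPE with the leukocyte markers (r = -0.68, adjusted p = 0.0453). By rho neither passed (0.65, adjusted p = 0.099, and -0.54, adjusted p = 0.169, permutation test).

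Of the 37 granule genes measured, 12 had r above 0.5 with CHGA, 11 with CHGB, 15 with SCG2, 10 each with SCG3 and SCG5, 4 with CPE and 2 with PCSK2 over the 20 animals. The counts of SCG2 are 40.5% of the list, beside 15.7% of the 10175 genes. Those of CHGA are 32.4%, beside 2.95%, of CHGB 29.7%, beside 5.33%, of SCG3 27.0%, beside 5.39%, and of SCG5 27.0%, beside 3.39%. The 2 of PCSK2 are 5.41% of the list, beside 5.31% of the 10175 genes, and the 4 of CPE are 10.8%, beside 6.88%. Without HR2835 the counts were 14, 13, 12, 12, 12, 8 and 1 in the same order, with 10.2% of the 10175 genes for CPE and 8.50% for SCG2. The list was not limited to genes above the median level. The highest was SLC18A1 for CHGA (r = 0.89), SYT11, a synaptotagmin, for CHGB (0.92), SCG3 (0.90) and SCG5 (0.79), and the SNARE protein SNAP25 for SCG2 (0.93). For CPE it was SLC18A2 (0.60) and for PCSK2 the carboxypeptidase CPZ (0.58). CADPS, which primes dense-core granules for release, had r of 0.84 with CHGB, 0.84 with SCG2 and 0.83 with SCG3. For RAB27A, a small GTPase of granule docking, r was 0.86, 0.84 and 0.80. The related and brighter RAB27B did not follow them, with r of -0.06, 0.26 and -0.03 in the same order. FURIN had r of -0.48 with CHGB and -0.53 with SCG3, which was not particular to it. CTSB and PICK1 also had r of -0.48 with CHGB, and ATP6AP1 had -0.49 with SCG2. Of the 37 genes, r was positive for 22 with CHGB and for 21 each with SCG2 and SCG3. For PCSK1N, the inhibitor of PCSK1, r was 0.69 with SCG5 and 0.51 with CHGA (0.81 without HR2835), and for VGF, another granin-like precursor, it lay between -0.20 and 0.21 with all 7.

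Among the 10175 other genes above the median level, those whose pattern over the 20 animals was most like each member were ranked by Pearson's r, as a description without a test. For CHGA these were ADCYAP1R1 (r = 0.93), the receptor for the peptide PACAP that drives catecholamine release, CPLX2 (0.89), SLC18A1 (0.89), TNR (0.89) and TMEM130 (0.88). For CHGB they were the sodium leak channel NALCN (0.96), the sialyltransferase ST8SIA3 (0.94), SYT11 (0.92), the prostaglandin receptor PTGER3 (0.91) and RGS5 (0.90). The median r over all these genes was -0.03 for CHGA and -0.10 for CHGB.

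SCG2 was most like SNAP25 (0.93), BHLHB9 (0.91), ZDHHC2 (0.88), PRUNE2 (0.88) and FAM69A (0.87). SCG3 was most like BCHE (0.91), the neuronal intermediate filament INA (0.91), SYT11 (0.90), CHGB (0.89) and ST8SIA3 (0.89), so that CHGB stood at place 4 for SCG3 and SCG3 at place 7 for CHGB. SCG5 was most like TNR (0.91), the G protein subunit GNAO1 (0.90), MAB21L2 (0.89), FAM162B (0.88) and DIRAS3 (0.87).

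Both enzymes had other neighbours. PCSK2 was most like the calcium channel subunit CACNA2D2 (0.81), the death receptor FAS (0.77), FOXI1 (0.74), SUSD2 (0.73) and GRK4 (0.73), and its nearest member by this measure, SCG5, stood at place 2846. CPE was most like ARPC2 (0.82), a subunit of the actin-nucleating complex, MAGEH1 (0.81), HMGN4 (0.80), ATP6V1B2 (0.78), a subunit of the granule proton pump, and FUCA2 (0.78), and SCG5 stood at place 95. Without HR2835 the 5 genes nearest to CPE moved to places 14 to 62 and SCG3 to place 20.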

How the data were processed

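Adrenal RNA of 20 pigs was hybridized to Affymetrix Porcine Snowball arrays. Scans were processed by the authors in GCOS 1.1.1 and summarized by RMA, and the deposited log2 values were used without a further normalization or filter, after 123 control probe sets had been left out (47722 tested). Probe sets were named by the annotation table of the array, which gave 1 symbol for 26426 of them and none for 21296. HR and LR, taken from the labels, were compared with limma 3.58.1 in R 4.3.3 (lmFit and eBayes, no covariate, two-sided) with p-values adjusted after Benjamini and Hochberg across the 47722 probe sets (threshold 0.05). Correlations were computed in Python 3.11.15 with NumPy 2.4.6 and SciPy 1.17.1, with two-sided permutation tests of 100000 resamples, exact with under 10 animals. Marker scores are means of standardized log2 values. The limma and permutation steps were tested on simulated data. Named genes are the members, the 4 granule genes of smallest p and the 4 of highest mean, the genes with the highest r with each member and the cell type markers, and further granule genes were named after their values were seen. The members and all lists were chosen with earlier results of these data known. Batch, litter and sex were not given in the sources used here.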

Additional observations from a re-analysis of the deposited data

Results flagged for a closer look

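In 1 of 30 sets of 10 animals examined (2 groups by 15 probe sets), a single animal stood apart from the others by Dixon's test, which chance alone does in about 1 of 20 sets. This was SCG3 in LR, where the lowest animal, LR2790, lay at 6.44 and the next at 7.29, a gap of 0.484 of the whole range of the group. The same animal was the lowest of all for CHGB (11.42) and SCG2 (8.04). Without it the difference HR minus LR of SCG3 was -0.26 in place of -0.13.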

How the results depend on the processing

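No paired analysis was run, because the sources used here give no litter or other link between HR and LR animals. The counts of 0 probe sets and 0 granule genes past the adjusted threshold, and each of the 7 differences staying short of it, held under median centring, quantile normalization, array quality weights, a robust trended variance, probe sets above the median level, either marker score as a covariate and the omission of each animal. CHGB changed sign with array quality weights (-0.019) and with the chromaffin (-0.025) or cortex score (-0.064) as covariate. Without HR2835 and with the chromaffin score, an alternative chosen after the data were seen, CHGA stood at -0.077 and CHGB at -0.15. With single animals left out, CHGA ranged from 0.0040 to 0.12, CHGB from -0.055 to 0.10, SCG2 from -0.31 (without LR2790) to -0.017 (without LR2793), SCG3 from -0.26 to -0.050, SCG5 from -0.16 to 0.029, PCSK2 from -0.021 to 0.075 and CPE from -0.37 to -0.21. The 12 correlated pairs became 9 without LR2793 and 14 without HR2835, with a median r between 0.46 (without LR2790) and 0.67, and 2 pairs passed within HR only when adjusted over its own 21 pairs. The 2 relations with the chromaffin score became 4 without HR2835. The cause of these changes was not tested. The small number of animals limits what could be detected, and no detection call was used here to set signal against background.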

Other observations

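The mean standardized level of the 7 transcripts was followed most closely by SYT11 (r = 0.92), TNR (0.92), INA (0.91), ASTN1 (0.89) and ST8SIA3 (0.89), and by CHRNA3 (0.88), a subunit of the nicotinic receptor through which nerves stimulate chromaffin cells. The most negative values were those of BRPF1 (-0.73), ZFP36L1 (-0.70), WWC3 (-0.69), TICAM1 (-0.69) and POLM (-0.68). PENK, the precursor of the enkephalins that chromaffin granules also hold, was chosen as a single marker after the data were seen. Its r was 0.79 with SCG5, 0.74 with CHGA, 0.73 with SCG3, 0.69 with SCG2, 0.68 with CHGB, 0.38 with CPE and 0.04 with PCSK2, and it was 0.75 with SCG2 and 0.46 with CPE without HR2835. These are values over 20 animals, given without a test.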
